A study of Homo sapiens with 20 samples.

Results

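The regions described here carried a HIF1A peak in RKO cells and in exactly 1 other cell line after hypoxia. They were chosen by joining the peaks of the 4 hypoxia lists wherever they overlapped by at least 1 bp and keeping every region with peaks in exactly 2 lines, RKO being one of them. Of 19628 regions in all, 504 met this rule. The second line was HCT116 in 183 regions, A549 in 131 and H460 in 190, and each of the 504 regions held 2 peaks. The underlying assay was ChIP-seq, in which fragments pulled down by an anti-HIF1A antibody are sequenced, in 4 established human cancer lines for which the labels give no engineered change. HCT116 and RKO came from carcinomas of the colon or rectum, A549 from a lung adenocarcinoma and H460 from a large cell carcinoma of the lung, and each line stands here as a single culture model of its tumour. Cells were held for 24 h in hypoxia with 1% O2 or in normoxia, the ordinary incubator atmosphere. Each line gave 2 libraries per condition and 1 library of input DNA, which went through no precipitation and is labelled normoxia. The source label of the RKO, A549 and H460 inputs names HCT116, while their titles and cell line labels name the line itself, which was followed here; the fold over input entered the calling of every list. The replicates were merged before peaks were called, so a value belongs to a merged library, whose tags numbered 41242090 to 81528303, and carries no replicate error. RNA was not measured in these libraries, so the identity of the lines was not checked against marker genes.

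HIF1A pairs with ARNT to form a transcription factor that acts when oxygen is low. With oxygen, prolyl hydroxylases mark HIF1A for destruction through the VHL ubiquitin ligase. Without it, HIF1A accumulates and the dimer binds the hypoxia response element (HRE), whose core reads ACGTG or GCGTG, near genes of glycolysis, angiogenesis, pH control and other parts of the hypoxic response.

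The sequence around the core is shown for high-ranked regions of each pair of lines, so that the words counted further on can be seen in place. Regions were ranked by the mean of their percentiles of signal in the RKO list and in the list of the other line, and 3 regions with the core are given for each pair, taken in order of rank. Regions whose window overlapped an untranslated region, such as LRRC37A3, or whose chromosome is not printed here, such as LACTB2-AS1 and CHRAC1, were passed over, so ADGRL1 and USP28 follow CCDC85B. CA12 is shown in full further on. Each window holds 61 bases of build GRCh37 and is read 5′ to 3′ on the strand named in parentheses, on which the central core runs forward. Capitals mark every ACGTG or GCGTG on either strand.
CCDC85B, RKO and HCT116, chr11:65659413-65659473 (-): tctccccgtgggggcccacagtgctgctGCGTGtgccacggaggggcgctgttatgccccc
ADGRL1, RKO and HCT116, chr19:14317803-14317863 (+): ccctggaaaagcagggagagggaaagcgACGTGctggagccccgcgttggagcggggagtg
USP28, RKO and HCT116, chr11:113746435-113746495 (-): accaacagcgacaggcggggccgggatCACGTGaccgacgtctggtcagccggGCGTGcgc
ENSG00000289736, RKO and A549, chr9:121094086-121094146 (+): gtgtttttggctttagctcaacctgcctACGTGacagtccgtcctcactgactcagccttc
LINC03041, RKO and A549, chr9:16247387-16247447 (+): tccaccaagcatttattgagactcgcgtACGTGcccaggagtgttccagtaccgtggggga
MSANTD3, RKO and A549, chr9:103191613-103191673 (+): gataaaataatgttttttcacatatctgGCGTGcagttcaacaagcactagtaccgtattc
RORA intron, RKO and H460, chr15:60884455-60884515 (+): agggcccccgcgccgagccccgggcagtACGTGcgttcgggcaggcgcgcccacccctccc
RYBP, RKO and H460, chr3:72496437-72496497 (+): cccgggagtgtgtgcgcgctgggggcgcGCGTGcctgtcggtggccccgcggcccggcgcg
HM13, RKO and H460, chr20:30102143-30102203 (+): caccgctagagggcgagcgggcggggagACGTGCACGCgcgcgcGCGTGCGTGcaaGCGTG

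The windows of the pairs with HCT116 and H460 were richer in G and C than those of the pair with A549. The USP28 window held the palindrome CACGTG, which contains the core on both strands and is also the E-box of other basic helix-loop-helix factors. The HM13 window held a run of overlapping cores, and the region around it held 7 matches in its central 200 bp.

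The next set shows the core in 29 bases at 4 regions that lay within 2500 bp of the transcription start site (TSS) of a gene from lists of HIF1A targets, with capitals as before.
CITED2, RKO and HCT116, chr6:139696564-139696592 (+): cgctcccggggtACGTGtgcttctgctaa
ANGPTL4, RKO and A549, chr19:8428793-8428821 (-): gaaccgtgggagACGTGactcttctttcc
PER2, RKO and A549, chr2:239197432-239197460 (+): acatagtggaaaACGTGaccgcgcgcgcc
KDM5C, RKO and H460, chrX:53254639-53254667 (-): actggcctttaaACGTGcaccgccggtcc

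CITED2 carried the core as TACGTG, ANGPTL4 as GACGTG, and PER2 and KDM5C as AACGTG. The flanking base thus differed among these genes while the core was ACGTG in all 4.

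The hypoxia signal chose these regions, so it is given as a description without a test. Signal counts the tags of a peak after the library is scaled to 10000000 tags, and its percentile runs to 100 for the strongest peak of a list. In RKO the signal of the 504 regions ran from 2.54 to 61.4, with a median of 4.63, which rests on a median of 31 tags per peak. The median over the 8139 regions called in RKO alone was 3.14. It was 5.98 over the 296 regions of 3 lines with RKO and 9.80 over the 232 regions of all 4 lines. The regions of 2 lines thus lay between the RKO-only regions and those of 3 lines. The median RKO percentile was 90.9 with HCT116, 87.9 with A549 and 87.9 with H460. The median percentile in the other line was 75.1 in HCT116, 76.4 in A549 and 62.2 in H460. A percentile is set within its own list, and the RKO list held 9171 peaks against 3877 to 5408 in the other lines. The RKO percentile was the higher one in 390 of the 504 regions. Both peaks stood above the 50th percentile of their lists in 357 regions (70.8%, Wilson 95% interval 66.7 to 74.6) and both at or below it in 29. Intervals here cover counting error only, because regions are not replicates.

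**Figure D1:**
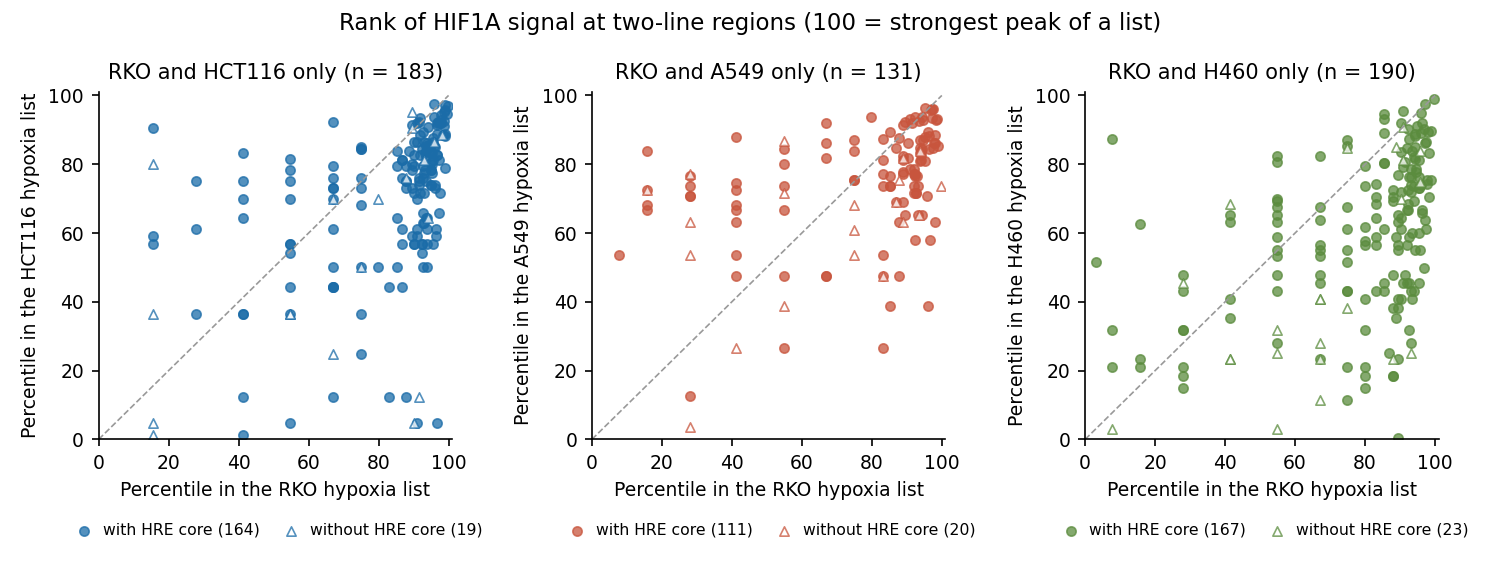
Percentile of HIF1A signal in the RKO hypoxia list (horizontal) against that in the list of the other line (vertical) for the 183, 131 and 190 regions of each pair, with 100 the strongest peak. Filled circles hold the HRE core in the central 200 bp, open triangles do not, and points below the dashed line of equal percentiles rank higher in RKO; columns of points arise because many peaks share a signal value.

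The 504 regions made up 5.50% (5.05 to 5.98) of the 9171 regions with an RKO peak. They made up 4.58% of the regions with an HCT116 peak, 2.42% of those with an A549 peak and 4.90% of those with an H460 peak. The lists had been called at different limits of fold over input, namely 6 in RKO, 7 in HCT116, 13 in A549 and 14 in H460. When 14 was required throughout, 180 regions met the rule, of which 29 were shared with HCT116, 60 with A549 and 91 with H460. The order of the pairs by size therefore depended on the limit. With a fold of 6 over the surrounding sequence in every list, 278 regions remained under the rule.

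Among the 183 regions shared with HCT116, the strongest lay 1300 bp downstream of the TSS of CCDC85B (chr11:65659321-65659568, intergenic). Its signal was 61.4 in RKO (95% Poisson interval of the tags 55.6 to 67.7) and 16.1 in HCT116 (13.4 to 19.1), and it was the 6th strongest of all RKO peaks. The region at LACTB2-AS1, 73 bp upstream of the TSS, had 14.2 in RKO and 16.9 in HCT116. LRRC37A3, with a region 43 bp upstream of its TSS, had 14.2 and 13.7. The intervals of the lines overlapped at LACTB2-AS1 and LRRC37A3 and were apart at CCDC85B. CHRAC1, a histone-fold subunit of a chromatin remodelling complex, had 13.3 in RKO and 12.9 in HCT116 in its intron. KLF10, a Krüppel-like repressor induced by TGF-beta, had 19.0 and 11.7 at a UTR. TK1, the thymidine kinase of DNA synthesis, had 7.77 in RKO and 18.9 in HCT116 at a UTR, 42 bp from its TSS. The RKO and HCT116 intervals of KLF10 and of TK1 did not overlap, in opposite directions. Signal is scaled to depth but not to the efficiency of the immunoprecipitation, so levels of 2 lines are set side by side without a test.

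Among the 131 regions shared with A549, 4 of the 6 best ranked lay over 2500 bp from any TSS. The best, intergenic and 333155 bp from the TSS of ENSG00000289736 on chromosome 9, had 9.42 in RKO (7.24 to 12.05) and 26.6 in A549 (22.1 to 31.7). A region in an intron of LINC03041 had 9.27 and 26.6. CA12 encodes a membrane carbonic anhydrase that controls extracellular pH, and its intron held a region 9288 bp downstream of the TSS (chr15:63664673-63664841) with 8.67 in RKO and 26.0 in A549. The nearest hypoxia peak of HCT116 or H460 lay 9163 bp away from it. MSANTD3 had 12.9 and 19.5 in an intron, 2271 bp downstream of the TSS. A region at a UTR of ARHGDIA had 7.18 and 27.7. A region in an intron of NEK6, a mitotic kinase, had 12.1 and 19.1. All 6 regions had the higher level in A549, and the intervals of the 2 lines overlapped in MSANTD3 and were apart in the other 5. The whole lists differed in scale in the same direction. Their median signal was 3.29 in RKO and 3.87 in A549, and their highest was 73.5 and 208.5.

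Among the 190 regions shared with H460, all 6 of the best ranked lay within 2500 bp of a TSS. WDR74, a factor of ribosome assembly, had 23.6 in RKO (20.1 to 27.6) and 63.3 in H460 (56.5 to 70.7) at a UTR, 71 bp from its TSS. A region inside an intron of RORA, a nuclear receptor of the circadian clock, had 8.97 and 45.5, and lay 737 bp upstream of the TSS of ENSG00000273958. RYBP, a subunit of Polycomb repressive complexes, had 7.92 and 32.4 at 689 bp upstream. HM13, the signal peptide peptidase, had 13.2 and 21.8 at 62 bp upstream. LINC01569 had 8.07 and 25.1 at 18 bp upstream. KDM5C, a demethylase of histone H3 lysine 4, had 10.8 (8.42 to 13.6) and 21.4 (17.5 to 25.9) at 5 bp upstream. Each of these 6 levels was higher in H460, with intervals apart. The H460 list as a whole also ran higher, with a median signal of 6.47 against 3.29 in RKO and a highest of 179.3 against 73.5.

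**Figure D2:**
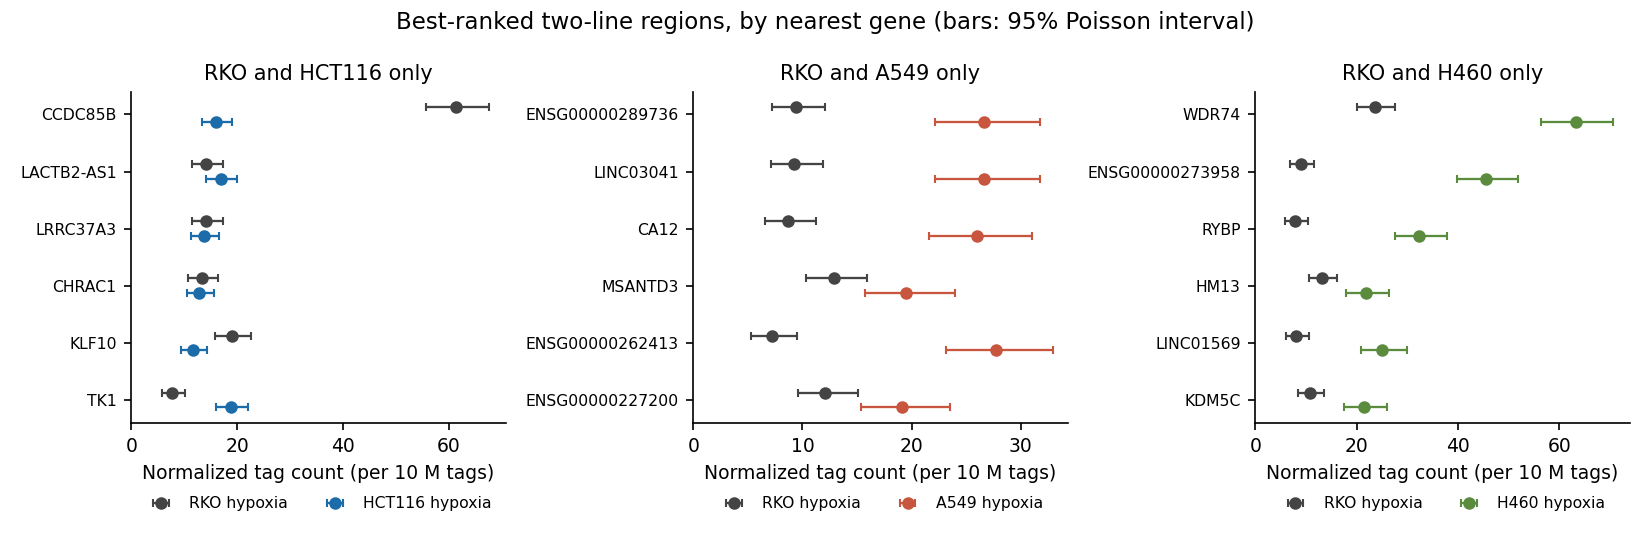
Signal in tags per 10000000 (horizontal) in RKO and in the other line at the 6 best-ranked regions of each pair, named by the gene with the nearest TSS; bars are 95% Poisson intervals of the tags. With HCT116 the lines differed in both directions (CCDC85B 61.4 against 16.1, TK1 7.77 against 18.9), whereas all 12 regions shared with A549 or H460 had the lower value in RKO. The A549 and H460 lists as a whole also reached higher signals (208.5 and 179.3) than the RKO list (73.5).

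Some regions ranked far apart in the 2 lists. The RKO percentile exceeded that of the other line by more than 50 points in 31 regions, of which 8 were with HCT116, 2 with A549 and 21 with H460. The reverse held in 8 regions. Named here are the 3 regions with the largest gap in each direction of each pair, which includes gaps of under 50 points at UBL3, LINC02182, LINC00265 and TRIP4. EDF1, a transcriptional coactivator, had a region 5 bp from its TSS with 8.52 in RKO, rank 304, and 2.45 in HCT116, rank 3703. AMIGO1 had 4.93 in RKO and 2.45 in HCT116. EXT1, a polymerase of heparan sulfate, had 7.92 in RKO and 3.65 in A549. DUSP2, a phosphatase that switches off MAP kinases, had 4.33 in RKO and 4.04 in H460, at the 87.9 and 18.3 percentiles. In the other direction, HELZ-AS1 had 2.84 in RKO, rank 7288, and 8.83 in HCT116, at the 90.5 percentile. NFE2L1, a transcription factor of proteasome genes, had 2.69 in RKO and 19.8 in H460, with ranks of 8186 and 482. NAP1L1, a histone chaperone, had 2.84 in RKO and 6.44 in A549. The remaining regions, at RAD51B, UBL3, FRG1-DT, ENSG00000286138 and ZSCAN5A-AS1 with RKO ahead, and at HNRNPD, LINC02182, IATPR, CD63, LINC00265 and TRIP4 with the other line ahead, ran from 2.54 to 4.78 in RKO. The RKO peaks at the low end rest on 17 to 20 tags.

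The HRE core was present in the central 200 bp of 442 of the 504 regions, 87.7% (84.5 to 90.3), beside 44.0% of all regions. The share was 89.6% (84.4 to 93.3) with HCT116, 84.7% (77.6 to 89.9) with A549 and 87.9% (82.5 to 91.8) with H460. The largest gap between pairs, HCT116 over A549, was 4.88 percentage points with a Newcombe interval from -2.49 to 12.9, so no difference between the pairs was resolved. At the common input limit of 14 the core was present in 84 of 91 regions with H460 and in 48 of 60 with A549, a difference of 12.3 points (1.32 to 24.7). Against regions of 2 lines without RKO, where the share was 88.4%, the difference was -0.747 points (-4.55 to 2.87). Regions of RKO alone held the core in 22.9%, which is 64.8 points less (61.5 to 67.6). The share was 94.3% over regions of 3 lines with RKO and 97.8% over regions of all 4, with differences of -6.56 (-10.4 to -2.40) and -10.1 points (-13.5 to -6.34). The words ACGAG and GCGAG, which have the same GC content and CpG, were present in 50.0% of the 504 regions, beside 26.1% of all regions and 15.3% of RKO-only regions. In windows 2000 bp to either side of the 504 regions the core was found in 26.1% and the control words in 16.0% of windows.

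The excess of the core over RKO-only regions was present at every level of RKO signal. In the weakest quartile of the RKO list, 15 of 21 regions held it (71.4%, 50.0 to 86.2), against 17.2% of 1854 RKO-only regions. In the strongest quartile the shares were 92.4% of 340 regions and 39.9% of 1202, a difference of 52.4 points (48.1 to 56.0). In quartiles 2 and 3 the differences were 59.5 (45.4 to 69.0) and 57.1 points (47.9 to 64.1). The control words were in excess in the same quartiles, by 30.2 points (11.7 to 50.8) in the weakest, 29.9 (16.4 to 44.6) and 33.4 (23.7 to 43.2) in quartiles 2 and 3, and 25.7 (19.8 to 31.5) in the strongest. With HCT116, 64.3% (38.8 to 83.7) of 14 regions in the weakest quartile of the HCT116 list and 92.7% (85.7 to 96.4) of 96 in the strongest held the core. With H460 the shares were 69.6% (49.1 to 84.4) of 23 and 90.6% (79.7 to 95.9) of 53, with overlapping intervals. With A549 the weakest quartile held 2 regions, too few for a comparison, and 93.0% (84.6 to 97.0) of the 71 in the strongest had the core.

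**Figure D3:**
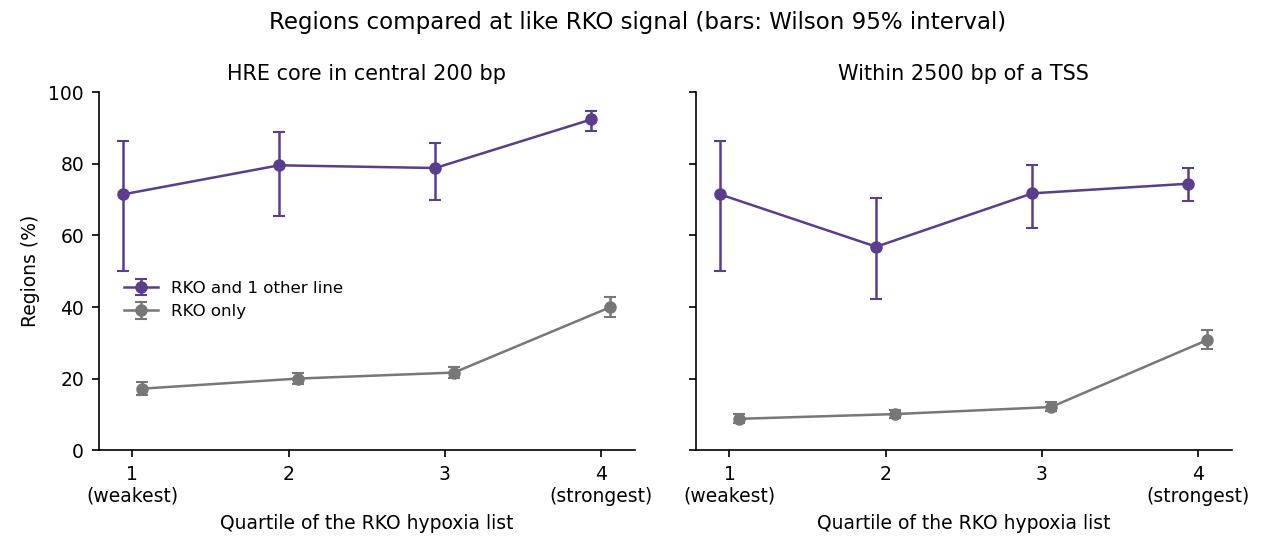
Share of regions with the HRE core (left) and within 2500 bp of a TSS (right) in each quartile of signal of the RKO hypoxia list, for regions of RKO and 1 other line and for RKO-only regions, with Wilson 95% intervals. The shared regions stay above the RKO-only regions in all 4 quartiles, for example 71.4% against 17.2% with the core in the weakest quartile.

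The core lay close to the centre of the region. Its median distance from the centre was 15 bp over the 442 regions that held it, and 69.9% (65.5 to 74.0) had it within 25 bp. The pairs with HCT116, A549 and H460 had medians of 16.5, 16 and 14 bp. In RKO-only regions with a core the median was 34.5 bp, and 39.6% (37.4 to 41.9) had it within 25 bp. In regions of all 4 lines 85.9% did. More than 1 match to the core was present in 242 of the 504 regions (48.0%), beside 19.5% of all regions, 47.5% of regions of 2 lines without RKO and 8.58% of RKO-only regions. Matches were counted on both strands, so a single palindrome CACGTG counted as 2 and raised these shares. That palindrome was in 14.9% of the 504 regions, 5.68% of all regions and 3.56% of RKO-only regions.

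**Figure D4:**
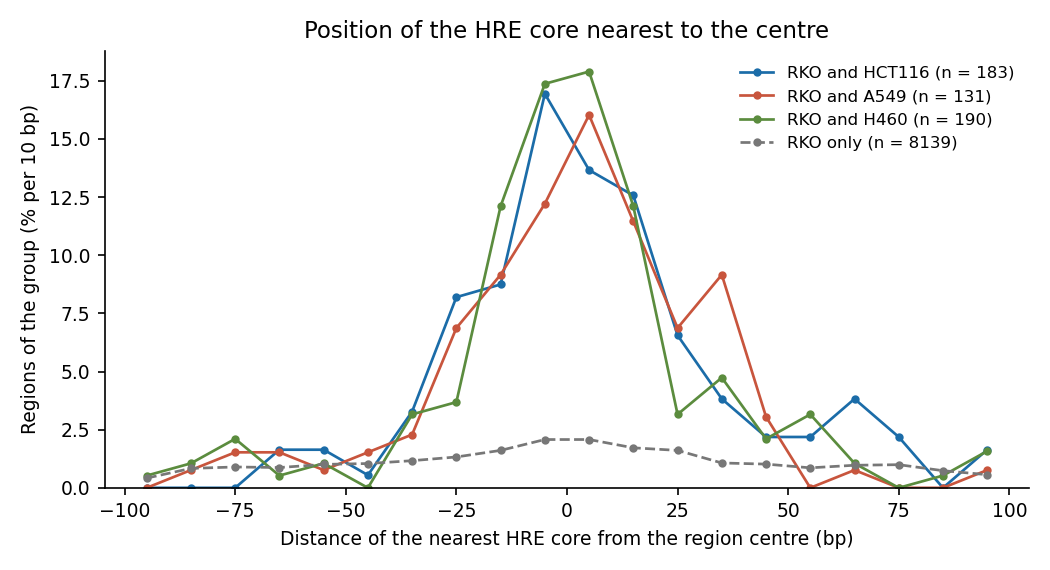
Distance in bp from the region centre to the nearest HRE core (horizontal) and the percent of regions of each group per 10 bp (vertical), with regions lacking the core counted in the total of each group. The 3 pairs peak within 10 bp of the centre, and RKO-only regions stay at or under 2.08% per 10 bp.

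The base before the core differed between the pairs. Where the core nearest the centre could be read with the base before it, TACGTG made up 29.1% (21.4 to 38.2) with A549, 10.98% (7.06 to 16.7) with HCT116 and 16.9% (11.9 to 23.3) with H460, beside 18.3% of all regions. The difference of HCT116 from A549 was -18.1 points (-28.0 to -8.56), and that of H460 from A549 was -12.2 points (-22.6 to -2.22). Pairs of A549 without RKO gave 36 of 144 with HCT116 and 31.0% of 248 with H460, from which the RKO pair differed by 4.09 (-6.75 to 15.2) and -1.96 points (-11.7 to 8.62), and HCT116 with H460 gave 13.1%. In the RKO pair with A549 TACGTG was the form in 18 of 45 regions over 2500 bp from a TSS and in 14 of 65 nearer ones. GACGTG was the commonest form over all 504 regions at 25.2% of 440, beside 18.5% of all regions, with 28.7%, 21.8% and 24.1% in the HCT116, A549 and H460 pairs. The E-box CACGTG was the form nearest the centre in 10.9%, beside 8.62% of all regions, against 4.82% of regions of 2 lines without RKO, a difference of 6.09 points (2.86 to 9.64), and against 3.96% of regions of all 4 lines. It made up 12.2% in RKO-only regions, from which the 504 regions differed by -1.25 points (-4.27 to 2.30). Anywhere in the central 200 bp the E-box was found in 14.9% of the 504 regions, beside 5.68% of all regions, and in 19.1% with HCT116, 12.2% with A549 and 12.6% with H460. ARNT dimers, MYC with MAX, USF and clock factors all bind E-boxes, and which of them occupied these sites was not measured.

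Most of the regions lay at promoters, though fewer in the pair with A549. The centre was within 2500 bp of the TSS of a protein-coding or lncRNA gene in 364 of the 504 regions, 72.2% (68.2 to 76.0), beside 27.0% of all regions. The share was 79.2% (72.8 to 84.5) with HCT116, 77.4% (70.9 to 82.7) with H460 and 55.0% (46.4 to 63.2) with A549. HCT116 exceeded A549 by 24.3 points (13.8 to 34.3) and H460 exceeded A549 by 22.4 points (11.9 to 32.5). At the common input limit of 14 the shares were 69.0% of 29 with HCT116 and 56.7% of 60 with A549, a difference of 12.3 points whose interval included 0 (-9.37 to 30.9), and H460 exceeded A549 by 29.0 points (14.5 to 42.9). Pairs without RKO gave 56.1% for HCT116 with A549, 71.1% for HCT116 with H460 and 41.2% for A549 with H460. The RKO pair with A549 thus differed from that of HCT116 with A549 by -1.14 points (-12.4 to 10.1), and from that of A549 with H460 by 13.7 points (3.39 to 23.7), all of which draw on the same A549 list. Only 13.5% of RKO-only regions were proximal, and the difference held in each quartile of RKO signal, from 43.6 points (38.1 to 48.7) in the strongest to 62.6 points (41.2 to 77.4) in the weakest. When every annotated transcript start was used in place of the 5′ end of the gene, 83.5% of the 504 regions were proximal, with 88.5%, 71.8% and 86.8% in the HCT116, A549 and H460 pairs.

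**Figure D5:**
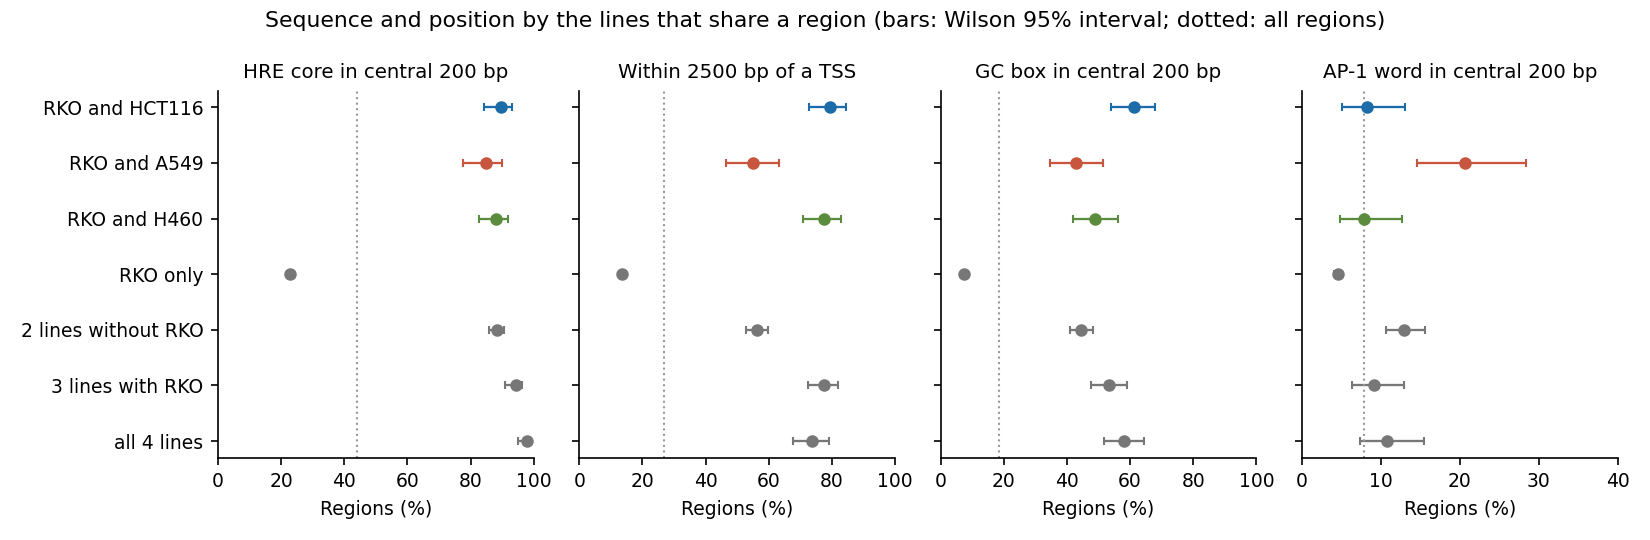
Percent of regions with the HRE core, within 2500 bp of a TSS, with the GC box and with an AP-1 word, by the lines that share a region, with Wilson 95% intervals and a dotted line at the share of all 19628 regions; the AP-1 axis ends at 40%. The 3 pairs with RKO have overlapping intervals for the core, whereas the pair with A549 is lower for promoters (55.0%) and higher for AP-1 (20.6%).

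Proximal regions clustered at the start itself. Their median distance from the TSS was 139.5 bp, 280 of 364 lay within 500 bp, and 53.0% (47.9 to 58.1) lay upstream. The promoter share came with base composition. The median GC content of the central 200 bp was 65.5% over the 504 regions, 69.0% with HCT116, 63.0% with A549 and 65.0% with H460, against 42.5% in RKO-only regions. The centre was annotated with protein-coding and lncRNA genes alone, so a region at a gene of another type can count as intergenic. By that annotation, 162 regions were intergenic (32.1%, beside 33.3% of all regions), 160 intronic (31.7%, beside 50.3%) and 121 in a UTR (24.0%, beside 8.997%). The other 61 were in a noncoding exon (8.73%, beside 4.83%) or a coding exon (3.37%, beside 2.57%). The part of base composition in the shares of the words was not tested. In all, 544 genes had one of the regions within 2500 bp of their TSS, and 153 regions lay that close to 2 or more gene starts. WTAP, a subunit of the RNA m6A methyltransferase, was the 1 gene with 2 such regions. One of these was shared with H460 (4.78 in RKO and 8.09 in H460) and held the core, and the other, downstream of it, was shared with HCT116 (3.29 and 2.82) and did not.

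AP-1 words stood out in the pair with A549. AP-1 is a dimer of FOS and JUN proteins that occupies many enhancers, and its words TGACTCA and TGAGTCA were searched on both strands, as all words here. They were found in 27 of 131 regions with A549, 20.6% (14.6 to 28.3), beside 7.82% of all regions, 8.20% with HCT116 and 7.89% with H460. The difference of HCT116 from A549 was -12.4 points (-20.8 to -4.64) and that of H460 from A549 was -12.7 points (-21.0 to -5.05). Pairs of A549 with HCT116 (19.5%) and with H460 (14.7%) gave differences from the RKO pair whose intervals included 0, 1.098 points (-7.95 to 10.48) and 5.92 points (-1.70 to 14.5). The A549 pair had more distal regions, and AP-1 words were found in 26.4% of the distal and 5.49% of the proximal regions among the 504, beside 9.05% and 4.46% over all regions. The distal share was 24.8% in regions of 2 lines without RKO and 24.6% in regions of all 4 lines. Among distal regions alone the shares were 33.9% of 59 with A549, 18.4% of 38 with HCT116 and 23.3% of 43 with H460, and the intervals of the differences included 0 (-31.2 to 2.98 and -26.9 to 7.41 points). Among distal RKO-only regions the share was 4.57%. Windows 2000 bp away from the 504 regions held AP-1 words in 3.08%.

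A pair of distal regions with A549 is shown in full, on the plus strand, since they hold both words, with cores and AP-1 words in capitals.
CA12 intron, RKO and A549, chr15:63664673-63664841 (+): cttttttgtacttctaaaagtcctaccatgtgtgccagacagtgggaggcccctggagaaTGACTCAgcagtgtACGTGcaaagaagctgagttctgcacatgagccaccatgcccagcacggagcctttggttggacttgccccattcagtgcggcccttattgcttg
NEK6 intron, RKO and A549, chr9:127071959-127072119 (+): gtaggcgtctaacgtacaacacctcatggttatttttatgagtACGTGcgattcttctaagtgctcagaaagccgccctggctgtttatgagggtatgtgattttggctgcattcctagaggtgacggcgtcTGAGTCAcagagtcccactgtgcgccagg

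In CA12 the AP-1 word lay just before the core, and in NEK6 the words stood far apart in the region. A region without the core in its central 200 bp is shown in the same way.
SGSM2 intron, RKO and HCT116, chr17:2263035-2263195 (+): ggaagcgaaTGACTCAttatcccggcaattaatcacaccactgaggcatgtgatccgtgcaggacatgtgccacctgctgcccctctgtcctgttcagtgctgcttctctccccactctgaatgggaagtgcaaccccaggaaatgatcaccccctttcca

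This region, in an intron of SGSM2 and 6970 bp from the nearest TSS, had a signal of 4.63 in RKO and 12.9 in HCT116 and held an AP-1 word near its edge. It was the second-ranked of the 62 regions without the core. The first lay outside the annotated protein-coding and lncRNA genes, upstream of ENSG00000261135 on chromosome 1 within 2500 bp of its TSS. Its signal was 11.4 in RKO and 7.97 in HCT116, and RKO normoxia had a peak there with 12. The third, intergenic and 9179 bp from the TSS of SIRT4, a mitochondrial sirtuin, had 7.77 and 7.24.

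Of the other words, the GC box GGGCGG, bound by SP and KLF factors, was found in 51.8% of the 504 regions, beside 18.5% of all regions, and in 61.2% with HCT116, 48.9% with H460 and 42.7% with A549. HCT116 exceeded A549 by 18.5 points (7.26 to 29.0) and H460 by 12.3 points (2.16 to 22.0). Pairs without RKO gave 60.9% for HCT116 with H460, 41.5% for HCT116 with A549 and 29.7% for A549 with H460. The RKO pair with HCT116 differed from that of HCT116 with H460 by 0.287 points (-8.79 to 9.18). The ETS word CCGGAAG was found in 10.1%, beside 3.31% of all regions, and the CREB word TGACGT, which can overlap GACGTG, in 7.94%, beside 4.17%. Regions of 2 lines without RKO held the ETS word in 7.15% and the CREB word in 8.25%. The core of the CTCF motif was found in 2.58% (1.51 to 4.36), beside 1.23%. The TEAD word GGAATG was found in 8.93% (6.74 to 11.7), beside 11.9%, and the RUNX word TGTGGTT in 2.78% (1.66 to 4.61), beside 3.61%. The FOXA words TGTTTAC and TGTTTGC were found in 2.98% (1.81 to 4.85), beside 6.31%. A match is a description of the letters and does not show that the factor was bound.

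Few known HIF1A target genes were among these regions. Of 105 genes in 13 lists of HIF1A targets and oxygen-sensing genes, 5 had a region within 2500 bp of their TSS (4.76%, 2.05 to 10.7), beside 1.40% of all 38807 gene names. Regions of 3 or 4 lines reached 43 of the 105 genes (41.0%, 32.0 to 50.5), beside 1.81% of all genes. RKO-only regions reached 6 of the 105 genes (5.71%, 2.64 to 11.9), beside 3.79% of all genes. Among 19 genes of glycolysis and glucose uptake, regions of 3 or 4 lines reached 13 and the regions described here reached 0. The lists of lactate export, pH regulation, mitophagy, collagen enzymes, mTOR regulators, glycogen and iron, and of other frequent targets, also gave 0. Lists this short cannot set a count of 0 apart from the 1.40% of all genes. None of 21 genes of colon or lung epithelium had a region within 2500 bp, a count that allows a share of up to 15.5% by the Wilson interval. Within 50000 bp, 11 of the 105 genes had one (5.95 to 17.8%), beside 4.86% of all genes, adding SLC2A1, ALDOC, VHL, CA12, MXI1 and HMOX1.

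Of the 5 genes, 4 are described here, and they fell to different roles and pairs. CITED2, which competes with HIF1A for the coactivator p300, was the only one of these 4 shared with HCT116, with 7.03 in RKO (5.16 to 9.34) and 6.50 in HCT116 (4.87 to 8.50) at 754 bp upstream of the TSS. A peak of a line outside the pair lay within 500 bp of that region. ANGPTL4, a secreted inhibitor of lipoprotein lipase, had 6.43 in RKO (4.65 to 8.66) and 9.23 in A549 (6.68 to 12.4) in its intron, 623 bp downstream. A second region shared with A549 lay 7445 bp upstream of ANGPTL4, held an AP-1 word but no core, and had 2.99 and 4.72. A peak of a line outside the pair lay 1769 bp from the intronic region. PER2, a repressor of the circadian clock, had 7.62 in RKO (5.68 to 10.0) and 6.01 in A549 (4.00 to 8.69) at a UTR, 1299 bp downstream. KDM5C, described above with H460, was the only listed histone demethylase of 7. The 4 regions lay between the 94.1 and 98.0 percentiles of the RKO list, and the RKO interval overlapped that of the other line in CITED2, ANGPTL4 and PER2 but not in KDM5C.

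Peaks in normoxia were found at few of the regions. At 34 of the 504 a peak of any of the 4 normoxia lists overlapped, 6.75% (4.87 to 9.28), beside 1.92% of all regions. The share was 0.749% in RKO-only regions and 24.6% in regions of all 4 lines, which gave differences of 5.997 (4.11 to 8.53) and -17.8 points (-24.0 to -12.1). Regions of 2 lines without RKO gave 5.36%, a difference of 1.38 points (-1.28 to 4.28). Regions of 3 lines with RKO gave 7.43%, a difference of -0.686 points (-4.72 to 2.85). Both of these intervals included 0. Among the 504 regions the peak was in RKO normoxia at 21 (4.17%, beside 0.637% of all regions), in the normoxia list of the partner line at 15 and in both at 3. It was in H460 normoxia at 0 of 504, which allows a share of up to 0.756% by the Wilson interval. H460 normoxia peaks were rare elsewhere too, at 0 of 8139 RKO-only regions and 2 of 296 regions of 3 lines with RKO. They were at 12 of 232 regions of all 4 lines. Of the 34 regions 24 held the core and 21 were proximal.

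Where the same line had a peak in both conditions, the signals were set side by side without a test, as each is a merged library and the peak widths differ (136 bp in normoxia and 160 bp in hypoxia for RKO). In RKO the signal was higher in hypoxia at 15 of 21 regions, with ratios of 0.616 to 3.05 and a median of 1.13. In HCT116 it was higher at 4 of 5 and in A549 at 5 of 10. CCDC85B, the strongest of all, had 62.5 in RKO normoxia and 61.4 in hypoxia. A region in a noncoding exon at PTOV1 had 21.5 and 31.1. LACTB2-AS1 had 4.66 and 14.2, and this was the highest ratio in RKO. A region at a UTR of NFE2L2, the regulator of the oxidative stress response, had peaks in both lines of its pair, with 5.99 in normoxia and 7.32 in hypoxia in RKO and 4.34 and 7.60 in HCT116. The region near SIRT4 had 4.88 and 7.77 in RKO and 4.19 and 7.24 in HCT116. At 3 regions shared with H460 a normoxia peak was in A549, which had no hypoxia peak there. These lay in overlapping introns of IGBP1C and TEX14 (30.6 in A549 normoxia), at a UTR of PYGO2 (8.00) and at CASC3 (4.61). RKO normoxia also had a peak at IGBP1C and TEX14 (4.66) and at PYGO2 (5.99), but not at CASC3. The lowest ratio in A549, 0.352, was at an intergenic region of chromosome Y with 17.7 in normoxia and 6.23 in hypoxia. Another intergenic region of chromosome Y had 19.2 and 7.09 in A549. These regions held no core and lay 237758 and 273132 bp from the nearest TSS, and how well reads map there was not tested.

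The rule has an edge at 1 bp of overlap. The median overlap was 127 bp, and the centres of the 2 peaks were within 20 bp in 209 regions and over 80 bp apart in 50. The smallest overlaps were 2 bp at SYNCRIP (4.33 in RKO and 4.72 in A549), 3 bp at GPX4, the enzyme that reduces lipid peroxides (3.44 and 4.45 in H460), and 4 bp at HNRNPD (2.84 and 5.64 in HCT116). Just outside, an RKO-only region on chromosome 15 abutted an A549 peak with a gap of 0 bp (2.99 and 3.22), and RKO-only regions at DNAJC4 (5.68 and 4.17) and at ENSG00000272162 (5.38 and 5.64) lay 2 bp from an HCT116 peak. In all, 51 of the 8139 RKO-only regions lay within 100 bp of a peak of another line. A hypoxia peak of a line outside the pair had its centre within 2500 bp of 71 of the 504 regions (14.1%, 11.3 to 17.4), beside 7.66% of all regions. The share was 13.2% in regions of 2 lines without RKO and 4.66% in RKO-only regions. More lines count as outside for an RKO-only region than for a shared one.

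The regions were spread over the chromosomes differently from RKO-only regions. Chromosome shares were not computed over all regions or over other shared regions, so which group was the unusual one was not tested. Chromosomes 7, 8 and 9 held 9.25%, 13.8% and 8.18% of RKO-only regions, but 4.17%, 4.56% and 3.77% of the 504. The differences were -5.09 (-6.65 to -2.88), -9.23 (-10.9 to -6.92) and -4.41 points (-5.89 to -2.29). Chromosomes 17 and 19 each held 39 of the 504 regions (7.74%), against 2.63% and 2.11% of RKO-only regions, with differences of 5.11 (3.05 to 7.79) and 5.62 points (3.57 to 8.31).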

How the data were processed

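HIF1A ChIP-seq and input libraries of 4 cell lines were described by 8 peak lists, of which the 4 hypoxia lists defined the regions. Per the submitters' processing notes and the study's methods, the authors aligned reads to GRCh37 (hg19) with Bowtie2 2.2.9, marked duplicates with Picard (1.129 in the notes, another version in the methods), merged replicates and called peaks with HOMER 4.3 against the input of the line (FDR 0.001, fold of 3 over the surroundings). The deposited signal is the normalized tag count of a peak per 10000000 tags. The deposited ratio over input and the deposited fold over the surrounding 10000 bp are the authors' quotients of scaled tags, and the deposited files hold 0.5 where no input tag was found. These peak lists hold no reads of single replicates, so depth enters only through the header totals, and Poisson intervals were computed from the normalized tag count times the total.

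Here, peaks were joined into regions (end minus start as deposited gives the peak width), and words were searched in the 200 bp at the region centre with Python 3.11.15 and pysam 0.24.0. Of each of 38865 genes (protein-coding or lncRNA, GENCODE 44 mapped to GRCh37) the 5′ end served as TSS. A region whose centre lay outside these genes is called intergenic, and genes of other types were not looked up. The lengths of the reference chromosomes held every peak. Shares carry Wilson 95% intervals and differences Newcombe intervals (scipy 1.17.1), not adjusted for the number of differences computed. Joining, word search and intervals were tested on simulated data. Regions were named as the 6 best by mean percentile of each pair, those near listed genes (1 is not reported here), the 3 largest rank gaps in each direction of each pair, the 5 with most normoxia peaks, the 3 best without the core and the edge cases of overlap. USP28 and ADGRL1 were the next ranked regions whose windows could be printed. WTAP and a second region at ANGPTL4 were named in addition after their values were seen, as were single regions with normoxia peaks. The regions, gene lists, words and named genes were chosen with earlier results of these data known. Groups came from the sample titles.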

Additional observations from a re-analysis of the deposited data

How the results depend on the processing

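No paired analysis was possible because the replicates had been merged before peaks were called, and for the same reason no replicate could be left out. Of 82 values under 10 alternatives, 56 stayed within 1.5 times the count or within the 95% interval of the share, and 26 moved. Raising the input limit to 14 for all lists gave 180 regions (29 with HCT116, 60 with A549, 91 with H460), a proximal share of 69.0% with HCT116 and 85.7% with H460 beside 56.7% with A549, and the core in 92.3% with H460 and 48 of 60 with A549. A fold of at least 6 over the surroundings gave 278 regions (87, 72 and 119), with the core in 91.4% of all and 91.7% with A549. Fewer peaks pass these limits, by construction. Peaks up to 200 bp apart, joined, gave the core in 83.4% of all and 82.5% with HCT116. A window of 100 bp gave the core in 76.2% of all, 75.4% with HCT116, 77.1% with A549 and 76.3% with H460. A limit of 1000 bp gave proximal shares of 65.3% of all, 45.0% with A549 and 70.5% with H460. Every transcript start gave 83.5%, 88.5%, 71.8% and 86.8% for all, HCT116, A549 and H460. The share of proximal regions was lowest with A549 under each of these alternatives. Peaks rest on as few as 14 tags, and a region missing from a list may hold signal under its limit.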
